A study of Arabidopsis thaliana with 12 samples.

Results

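Transcript levels of 10 Arabidopsis thaliana genes that set the response to iron shortage were followed in shoots and roots of wild-type Col-0 (WT) and of plants that overexpress CCA1 (CCA1-ox), which encodes a MYB-related factor that represses evening genes of the plant clock. The genes are the transcription factor genes BHLH38, BHLH39, BHLH100 and BHLH101, the peptide genes IMA1, IMA2 and IMA3, the ubiquitin ligase gene BTS, the transcription factor gene PYE and the transporter gene OPT3. They were taken by their gene identifiers, as a set chosen with earlier results of these data known. Counts of called genes among them are therefore a description. All 10 were found among the 33010 genes of the deposited table and passed a filter on low values (1 FPKM in at least 3 libraries). Seedlings were 8 days old and had grown in constant white fluorescent light of 15 µE at 22 °C, in all 4 groups alike. Each group (WT shoots, CCA1-ox shoots, WT roots, CCA1-ox roots) held 3 libraries, and 27142671 to 45051329 fragments per library, summed over genes, lay behind the values. The promoter that drives CCA1, the number of independent lines, the iron supply and the time of harvest could not be stated, because the sources used here do not give them. The labels name no separate cultures, so p-values measure the spread between these libraries, which may be technical.

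In Arabidopsis roots, iron shortage turns on a reductase, an iron transporter and the secretion of coumarins that mobilise iron. FIT, a bHLH transcription factor, drives these genes as a partner of BHLH38, BHLH39, BHLH100 or BHLH101, whose own genes are among the strongest markers of iron shortage in both organs. Upstream of them stand bHLH factors such as BHLH34, BHLH104, ILR3, BHLH115 and URI. BTS marks several of those for degradation, and the short IMA peptides bind BTS and hold it back. PYE is a bHLH repressor of genes for iron movement and storage, and OPT3 loads iron into the phloem and is needed for the shoot to signal its iron status to the root.

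The overexpressed gene was checked first. CCA1 (AT2G46830) stood at 44.96 ± 0.202 FPKM (fragments per kilobase of exon, scaled to library size, mean ± SD, n = 3) in WT shoots and 214 ± 1.98 in CCA1-ox shoots, and its root levels were 17.1 ± 0.838 for WT and 175 ± 4.36 for CCA1-ox. The photosynthetic markers RBCS1A, LHCB1.3, CAB3 and LHCB2.1 summed in shoots to 32409 to 32438 FPKM for WT and 24072 to 24517 for CCA1-ox. The mean of CAB3 was higher in CCA1-ox shoots than in WT shoots (4680 against 3869 FPKM). Those of RBCS1A (7241 against 9707) and LHCB1.3 (11035 against 17442) were lower, and that of LHCB2.1 was 1401 against 1410. In roots the photosynthetic markers summed to 17.7 to 20.1 FPKM in WT and 1.04 to 1.42 in CCA1-ox. The root hair genes EXPA7 and RSL4 were at 0 in both shoot groups and between 3.94 and 24.0 FPKM on average in roots. In bulk RNA, fewer cells of a type and less RNA per cell cannot be told apart.

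BHLH38 and BHLH39 rose in both organs of CCA1-ox plants, and BHLH100 and BHLH101 rose in roots. Of the 10 genes, 6 were called higher and 1 lower in shoots of CCA1-ox, and 7 were called higher and 1 lower in its roots. Called means an adjusted p under 0.05 in limma on log2(FPKM + 1), with Benjamini-Hochberg adjustment over 20975 genes. Over all genes tested, 55.5% were called in shoots (26.6% higher and 28.9% lower) and 36.3% in roots (20.8% higher and 15.4% lower). The median log2 fold change of the 10 genes was 0.15 in shoots and 0.30 in roots, against −0.0083 and 0.016 over all genes tested. BHLH38, BHLH39, BHLH100, BHLH101 and OPT3, 5 genes in all, were called higher in both organs, against 7.43% of all genes tested. The shoot calls of BHLH100 and BHLH101 lay close to the threshold and were lost with a pseudocount of 0.1, without a filter on low values and with the replicate block (adjusted p = 0.0587 to 0.124).

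**Figure D1:**
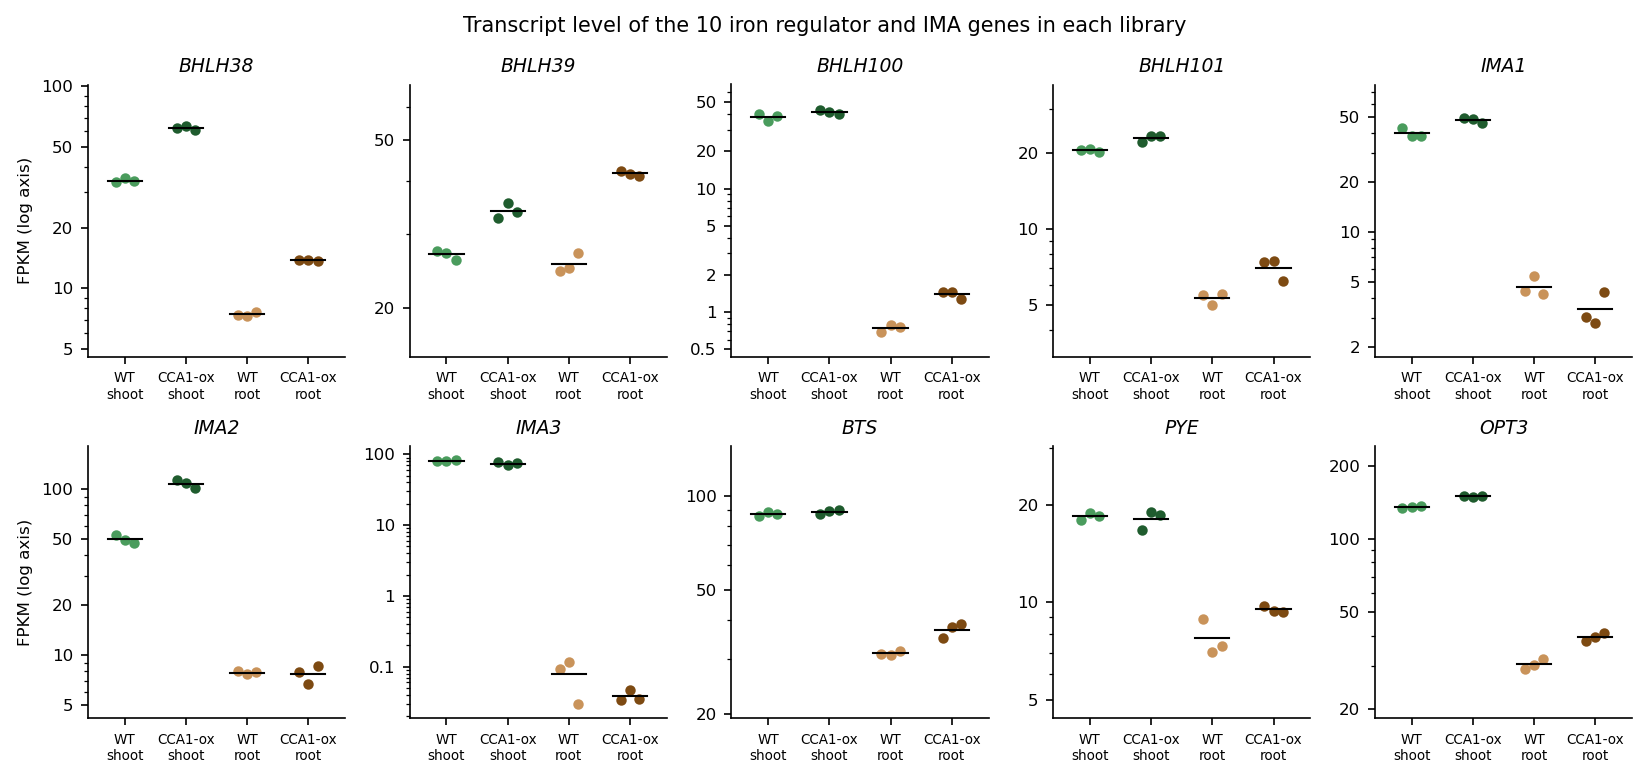
Transcript level (FPKM, log axis with its own range in each panel) of the 10 genes in the 12 libraries; points are libraries and bars are group means (n = 3). BHLH38 lies higher in CCA1-ox than in WT in both organs, IMA2 rises in shoots from 50.1 to 108 FPKM, and IMA3 lies below 0.12 FPKM in all 6 root libraries.

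BHLH38 (AT3G56970, chromosome 3, 21084035 to 21085245, minus strand) had the largest rise of the 4 BHLH genes in both organs on the log2(FPKM + 1) scale. Its levels were 33.6, 35.0 and 33.8 FPKM in the WT shoot libraries and 62.5, 63.8 and 61.0 in CCA1-ox shoots. In roots they were 7.35, 7.33 and 7.63 FPKM in WT and 13.8, 13.8 and 13.6 in CCA1-ox. Every CCA1-ox library lay above every WT library of its organ. The log2 fold change was 0.85 in shoots (SE 0.0317, adjusted p = 7.26e-11) and 0.81 in roots (SE 0.0317, adjusted p = 4.98e-10), which corresponds to ratios of mean FPKM of 1.83 and 1.85.

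BHLH39 (AT3G56980, chromosome 3, 21086390 to 21087710, minus strand), the tandem neighbour of BHLH38, rose more in roots than in shoots. WT shoot libraries held 27.4, 27.1 and 26.0 FPKM and CCA1-ox shoot libraries 32.7, 35.5 and 33.8. WT root libraries held 24.5, 24.9 and 27.1 FPKM and CCA1-ox root libraries 42.4, 41.7 and 41.2. The 2 genotypes did not overlap in either organ. The log2 fold change was 0.33 in shoots (SE 0.0413, adjusted p = 1.32e-05) and 0.69 in roots (SE 0.0413, adjusted p = 2.92e-08).

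BHLH100 (AT2G41240, chromosome 2, 17198037 to 17199454, minus strand) stood far higher in shoots than in roots. It stood at 39.7, 35.5 and 38.9 FPKM in WT shoots and at 43.4, 41.8 and 40.2 in CCA1-ox shoots. In roots it stood at 0.696, 0.784 and 0.755 FPKM in WT and at 1.45, 1.45 and 1.29 in CCA1-ox, from 35 to 63 fragments per library. The root levels did not overlap, with a log2 fold change of 0.46 (SE 0.0540, adjusted p = 1.91e-05) on a scale that understates changes of such low values, and the ratio of mean FPKM was 1.87. In shoots the log2 fold change was 0.13 (SE 0.0540, adjusted p = 0.0497). That shoot call was lost when any of 9 libraries was left out (WT shoot replicates 2 and 3, CCA1-ox shoot replicates 1 and 2, WT root replicates 1, 2 and 3, CCA1-ox root replicates 1 and 2; adjusted p = 0.0514 to 0.226), and without WT shoot replicate 2 the fold change was 0.086.

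BHLH101 (AT5G04150, chromosome 5, 1138410 to 1139633, minus strand) showed the smallest root response of the group. It stood at 20.7, 20.7 and 20.3 FPKM in WT shoots and at 22.1, 23.4 and 23.4 in CCA1-ox shoots. In roots it stood at 5.52, 5.01 and 5.53 FPKM in WT and at 7.43, 7.48 and 6.26 in CCA1-ox. The genotypes did not overlap in either organ, with a log2 fold change of 0.15 in shoots (SE 0.0591, adjusted p = 0.0464) and 0.34 in roots (SE 0.0591, adjusted p = 0.000525). The shoot call was lost without any of 7 libraries (WT shoot replicates 1, 2 and 3, CCA1-ox shoot replicates 2 and 3, WT root replicates 1 and 3; adjusted p = 0.0532 to 0.120). The gene overlaps AT5G04140 on the other strand, and BHLH38 overlaps AT3G56960 in the same way. No source used here gives the strand setting of the counting, so reads of such pairs may not have been told apart.

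**Figure D2:**
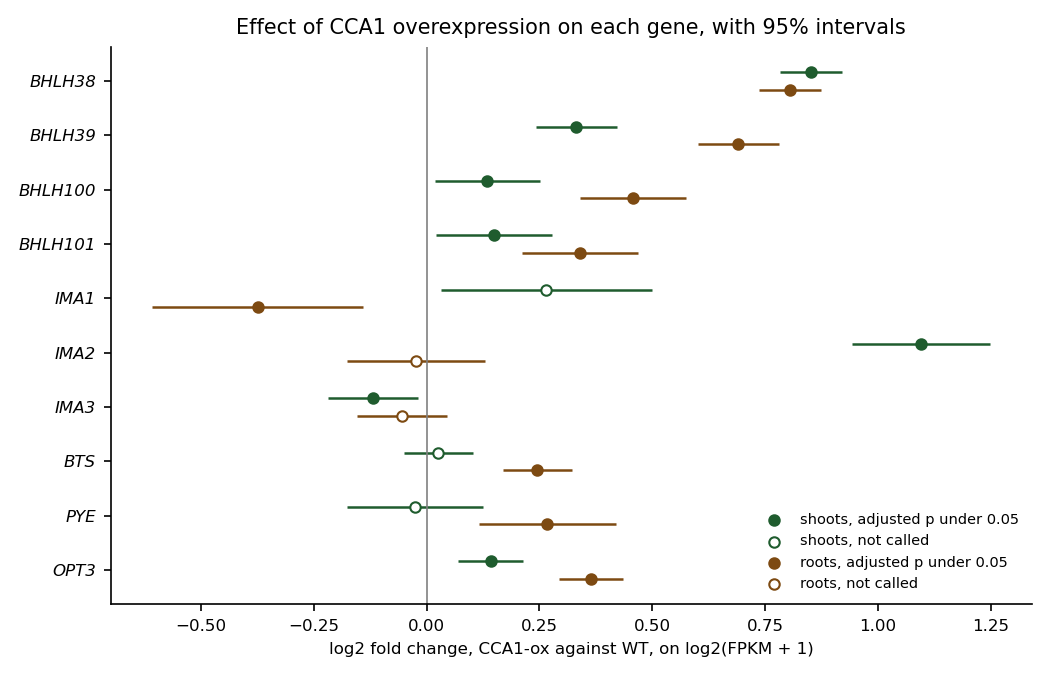
Log2 fold change of CCA1-ox against WT (x axis, on log2(FPKM + 1)) of each gene in shoots and roots, with 95% intervals from limma; filled points have an adjusted p under 0.05. The 4 BHLH genes lie right of 0 in both organs, IMA2 lies at 1.10 in shoots and −0.024 in roots, and BTS and PYE lie near 0 in shoots and at 0.25 and 0.27 in roots.

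BHLH38 and BHLH39 lie 1144 bases apart in the same orientation, and their coding sequences are 83.1% identical. The longest run of bases that their transcripts share is 34 bases. The ratio of BHLH38 to BHLH39 within a library does not depend on how libraries are scaled. It was 1.27 ± 0.0418 (SD, n = 3) in WT shoots and 1.84 ± 0.0636 in CCA1-ox shoots, and its root values were 0.292 ± 0.00931 for WT and 0.329 ± 0.00273 for CCA1-ox. BHLH38 was the more abundant of the pair in all 6 shoot libraries and the less abundant in all 6 root libraries, and the ratios of the genotypes did not overlap in either organ. These ratios were chosen after the values were seen and are given as a description.

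The sequences upstream of the neighbours are shown because their transcripts differed in organ and in response. The 250 bases before each annotated start were read 5′ to 3′ on the minus strand of TAIR10.1 (RefSeq), at chr3:21085246-21085495 for BHLH38 and chr3:21087711-21087960 for BHLH39. Capitals mark the G-box, the palindrome CACGTG that many bHLH and bZIP factors bind.
BHLH38: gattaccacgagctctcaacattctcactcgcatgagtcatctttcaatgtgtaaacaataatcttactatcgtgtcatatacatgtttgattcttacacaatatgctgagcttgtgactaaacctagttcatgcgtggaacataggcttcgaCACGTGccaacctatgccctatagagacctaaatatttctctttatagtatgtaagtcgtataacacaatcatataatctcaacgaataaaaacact
BHLH39: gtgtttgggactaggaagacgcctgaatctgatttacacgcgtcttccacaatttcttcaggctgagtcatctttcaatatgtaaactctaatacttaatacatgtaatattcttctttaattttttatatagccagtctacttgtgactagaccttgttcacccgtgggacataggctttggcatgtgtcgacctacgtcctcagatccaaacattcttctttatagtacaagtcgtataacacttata
BHLH38 has 1 G-box, which starts 97 bases before the annotated start, and BHLH39 has none in this window.

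Within 250 bases upstream, 4 of the 10 genes hold a G-box (BHLH38, BHLH100, BTS and OPT3), against 5.90% of the 32721 genes searched. The other 3 genes with a G-box are shown around it, at chr2:17199513-17199572 on the minus strand, chr3:6273793-6273928 on the plus strand and chr4:9250389-9250448 on the minus strand, with the G-box in capitals.
BHLH100: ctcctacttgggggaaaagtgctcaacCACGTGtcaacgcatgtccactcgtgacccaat
BTS: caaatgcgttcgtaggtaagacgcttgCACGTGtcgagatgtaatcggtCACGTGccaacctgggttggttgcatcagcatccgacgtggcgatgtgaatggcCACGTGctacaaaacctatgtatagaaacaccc
OPT3: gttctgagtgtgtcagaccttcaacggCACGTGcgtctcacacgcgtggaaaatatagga
BTS holds 3 copies, at 146, 124 and 70 bases before its start. BHLH100 and OPT3 hold 1 each in this window, at 91 and 78 bases. The evening element AAAATATCT and the CCA1-binding site AAAAATCT, both known as sites that CCA1 binds, were searched on both strands and are in none of the 10 windows, against 2.22% and 6.38% of all genes. Within 1000 bases 5 of the 10 genes hold a G-box, with IMA3 added, against 14.1% of all genes. In that window the evening element is upstream of BHLH100 and the CCA1-binding site upstream of BHLH101 and PYE, so 1 and 2 of the 10 genes hold them, against 6.93% and 20.7% of all genes. No matches in these genes overlapped, and a match is a description of the sequence.

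**Figure D3:**
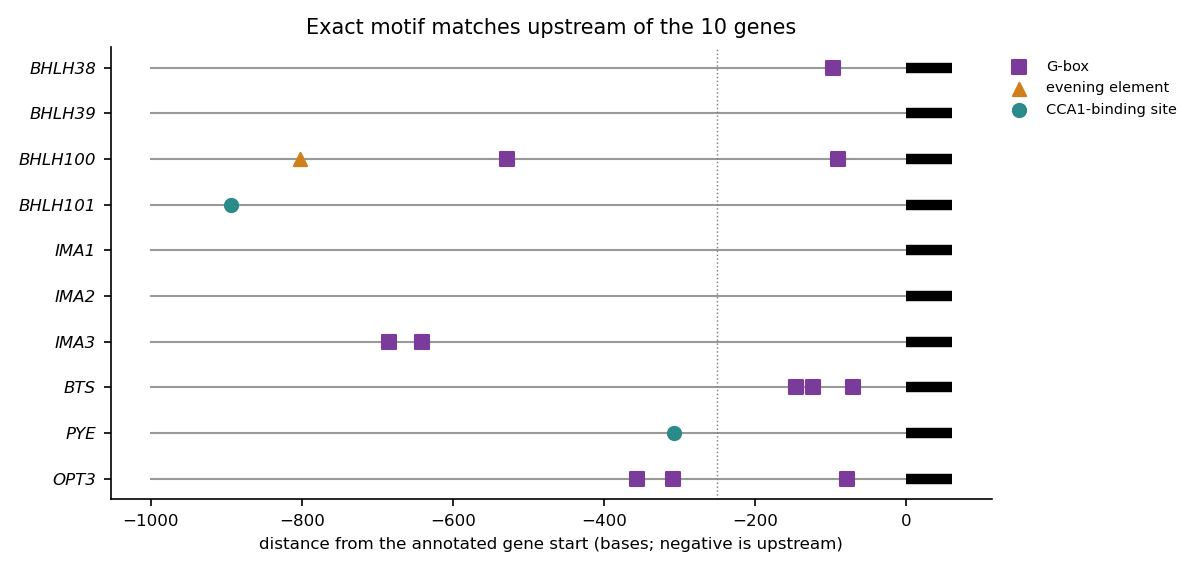
Exact matches to the G-box, the evening element and the CCA1-binding site in the 1000 bases upstream of the 10 genes (x axis, distance from the annotated start in bases; black bars mark the start of the gene and the dotted line lies 250 bases upstream). BHLH38, BHLH100, BTS and OPT3 each have a G-box within 146 bases of the start, and IMA1, IMA2 and BHLH39 have no match to any of the 3 motifs.

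The 3 IMA peptide genes differed from one another in CCA1-ox. Their coding sequences are short, 153, 153 and 144 bases, and are printed because IMA1 and IMA2 are near copies. The sequences are from TAIR10.1 (RefSeq), all on the plus strand, at chr1:17385818-17385970 for IMA1, chr1:17383117-17383269 for IMA2 and chr2:13108068-13108211 for IMA3. Capitals mark the 55 bases at the 3′ end that are identical in IMA1 and IMA2 and the last 55 bases of IMA3, of which 37 match. This end codes for the conserved acidic end of the peptides.
IMA1: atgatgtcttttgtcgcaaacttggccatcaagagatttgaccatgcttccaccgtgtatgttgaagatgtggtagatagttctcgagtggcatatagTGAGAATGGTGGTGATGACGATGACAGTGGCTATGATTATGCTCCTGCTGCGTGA
IMA2: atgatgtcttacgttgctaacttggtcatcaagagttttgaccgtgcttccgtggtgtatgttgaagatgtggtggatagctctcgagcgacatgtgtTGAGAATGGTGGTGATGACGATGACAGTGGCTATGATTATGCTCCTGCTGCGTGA
IMA3: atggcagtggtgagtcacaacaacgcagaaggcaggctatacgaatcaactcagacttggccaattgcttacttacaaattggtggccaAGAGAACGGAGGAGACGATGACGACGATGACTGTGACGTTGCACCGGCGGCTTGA
IMA1 and IMA2 lie 1876 bases apart on chromosome 1 and have 136 of 153 coding bases in common. The longest run their transcripts share is 59 bases, so single values of the pair carry some uncertainty from shared fragments.

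IMA2 (AT1G47395, chromosome 1, 17382998 to 17383830, plus strand) rose in CCA1-ox shoots. Its levels were 52.9, 49.7 and 47.5 FPKM in the WT shoot libraries and 114, 109 and 101 in CCA1-ox shoots. The log2 fold change was 1.10 (SE 0.0705, adjusted p = 2.08e-08), the largest of the 10 genes in either organ, with a ratio of mean FPKM of 2.16. In roots IMA2 stood at 7.98, 7.69 and 7.86 FPKM in WT and at 7.93, 6.66 and 8.62 in CCA1-ox. The root groups overlapped and no change was called (log2 fold change −0.024, 95% interval −0.18 to 0.13, adjusted p = 0.842). The sign of that root value turned when replicate 2 of CCA1-ox roots was left out (0.068, adjusted p = 0.409).

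IMA1 (AT1G47400, chromosome 1, 17385707 to 17386485, plus strand) differed from its neighbour in which organ passed the test. It stood at 42.4, 38.0 and 38.1 FPKM in WT shoots and at 48.9, 48.5 and 45.6 in CCA1-ox shoots. The shoot groups did not overlap, and the log2 fold change of 0.27 (SE 0.108) missed the threshold (adjusted p = 0.0517). It passed when replicate 1 of WT shoots, replicate 2 of WT roots, or replicate 2 or 3 of CCA1-ox roots was left out (adjusted p = 0.00776 to 0.0462). It also passed with a pseudocount of 5 (adjusted p = 0.00555), a filter at 5 FPKM (0.0399), quantile normalization (0.0194), scaling to the summed fragments (0.0118), voom (2.22e-07) and the fit of shoots alone (0.00699), but not with a pseudocount of 0.1 (0.110) or without a filter (0.0884). In roots IMA1 stood at 4.40, 5.38 and 4.20 FPKM in WT and at 3.06, 2.80 and 4.33 in CCA1-ox, so CCA1-ox replicate 3 lay within the WT range. It was called lower in CCA1-ox roots (−0.37, SE 0.108, adjusted p = 0.0150), a call lost when replicate 2 of WT roots or replicate 1 or 2 of CCA1-ox roots was left out (−0.32 to −0.28, adjusted p = 0.0614 to 0.0737) and in the fit of roots alone (adjusted p = 0.104).

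The ratio of IMA2 to IMA1 within a library was 1.27 ± 0.0342 (SD, n = 3) in WT shoots and 2.27 ± 0.0520 in CCA1-ox shoots. Its root values were 1.70 ± 0.239 for WT and 2.32 ± 0.307 for CCA1-ox. The genotypes did not overlap in either organ. As with the BHLH pair, the ratio was chosen after the values were seen.

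**Figure D4:**
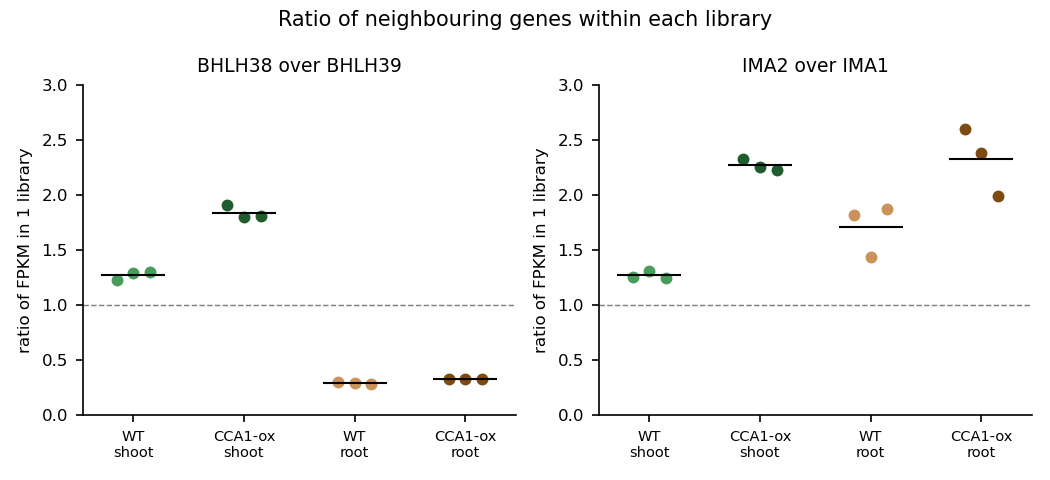
Ratio of FPKM of 2 neighbouring genes within each library (y axis), for BHLH38 over BHLH39 (left) and IMA2 over IMA1 (right); points are libraries, bars are group means (n = 3) and the dashed line marks equal levels. Each ratio is higher in CCA1-ox than in WT in both organs, and BHLH38 over BHLH39 falls from above 1.2 in shoots to below 0.34 in roots.

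IMA3 (AT2G30766, chromosome 2, 13107583 to 13110480, plus strand) was abundant in shoots and nearly absent from roots. It stood at 79.5, 80.4 and 81.9 FPKM in WT shoots and at 77.1, 71.1 and 74.1 in CCA1-ox shoots. It was called lower in CCA1-ox shoots (log2 fold change −0.12, SE 0.0464, adjusted p = 0.0433). The call was lost without WT shoot replicate 1, 2 or 3 or CCA1-ox shoot replicate 2 or 3 (−0.13 to −0.090, adjusted p = 0.0734 to 0.180) and scaled to the summed fragments (−0.012, adjusted p = 0.869). In roots 8, 12 and 3 fragments fell on IMA3 in the WT libraries and 2, 3 and 3 in CCA1-ox, too few to compare the genotypes. The mean root level was 0.0985% of the shoot level in WT and 0.0521% in CCA1-ox. For the photosynthetic markers these values were 0.0583% and 0.00495%, and their part in the root value of IMA3 was not tested. The annotated exons of IMA3 sum to 1995 bases, of which 144 code for the peptide, and the gene overlaps AT2G30760 and AT2G30770 on the other strand.

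BTS and PYE rose in CCA1-ox roots. BTS (AT3G18290, chromosome 3, 6273966 to 6280562, plus strand) stood at 31.2, 31.1 and 31.8 FPKM in WT roots and at 35.0, 38.1 and 39.1 in CCA1-ox roots, with no overlap (log2 fold change 0.25, SE 0.0353, adjusted p = 0.000110). In shoots it stood at 86.5, 88.8 and 87.8 FPKM in WT and at 87.6, 89.8 and 90.6 in CCA1-ox, and no change was called (0.026, 95% interval −0.051 to 0.10, adjusted p = 0.575). BTS was called higher in shoots too when libraries were scaled to the summed fragments (0.13, adjusted p = 0.00536), with quantile normalization (0.14, adjusted p = 0.00761) and with voom (0.13, adjusted p = 5.82e-06).

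PYE (AT3G47640, chromosome 3, 17567126 to 17569394, plus strand) stood at 8.92, 7.02 and 7.35 FPKM in WT roots and at 9.73, 9.43 and 9.36 in CCA1-ox roots, with no overlap. The log2 fold change was 0.27 (SE 0.0698, adjusted p = 0.00852), a call lost in the fit of roots alone (adjusted p = 0.0534). In shoots PYE stood at 17.9, 18.9 and 18.5 FPKM in WT and at 16.8, 19.0 and 18.7 in CCA1-ox. These groups overlapped and no change was called (−0.026, 95% interval −0.18 to 0.12, adjusted p = 0.791), with a sign that turned without CCA1-ox shoot replicate 1 (0.027) and scaled to the summed fragments (0.077).

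OPT3 (AT4G16370, chromosome 4, 9247302 to 9250343, minus strand) was the most abundant of the 10 genes in shoots of both genotypes, and rose in both organs. WT shoot libraries held 134, 136 and 136 FPKM and CCA1-ox shoot libraries 149, 149 and 150.4. WT root libraries held 29.3, 30.2 and 32.0 FPKM and CCA1-ox root libraries 38.1, 39.6 and 40.9. The genotypes did not overlap in either organ. The log2 fold change was 0.14 in shoots (SE 0.0331, adjusted p = 0.00246) and 0.36 in roots (SE 0.0331, adjusted p = 1.69e-06).

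Phloem markers were measured beside OPT3, which acts in the phloem. The markers SUC2, APL, SEOR1 and FTIP1 summed in shoots to 123 to 126 FPKM for WT and 107 to 111 for CCA1-ox, and in roots to 59.7 to 60.6 for WT and 39.0 to 40.7 for CCA1-ox. Of these 4 genes, 2 were called higher and 1 lower in shoots, and 2 were called lower in roots. SUC2, the sucrose carrier of companion cells, fell in both organs (−0.52 in shoots and −1.23 in roots). It was the largest part of the WT sums. SEOR1 rose from 21.3 to 31.6 FPKM in shoots and fell from 19.5 to 13.9 in roots. APL went from 8.55 to 9.63 FPKM in shoots and from 8.29 to 7.35 in roots. FTIP1 went from 4.26 to 3.94 FPKM in shoots and from 8.36 to 8.94 in roots. OPT3 was higher in CCA1-ox roots, where the means of SUC2, APL and SEOR1 were lower and that of FTIP1 was higher. In CCA1-ox shoots, xylem markers XCP1, VND7 and IRX12 summed to 46.4 to 49.5 FPKM against 20.2 to 22.4 in WT, and root markers COBL9, EXPA7, RSL4, CASP1 and PER64 to 17.8 to 20.5 against 5.91 to 8.24, with EXPA7 and RSL4 at 0. In roots the xylem sums were 99.2 to 101 FPKM in WT and 100.1 to 104 in CCA1-ox, and the root markers summed to 202 to 211 and 282 to 292. Guard cell markers FAMA, KAT1 and MYB60 summed in shoots to 32.5 to 32.9 FPKM for WT and 28.4 to 30.4 for CCA1-ox. In roots they summed to at most 0.189 FPKM. KAT1 rose in shoots from 9.08 to 12.8 FPKM, while FAMA fell from 12.1 to 7.88 and MYB60 from 11.6 to 8.79. The part of these markers in the results on the 10 genes was not tested.

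In WT, 9 of the 10 genes were lower in roots than in shoots and none was higher. Over all genes tested, 87.2% were called between these organs, 41.8% lower and 45.3% higher in roots. Shoot levels were above root levels 2.38-fold for PYE, 2.80-fold for BTS, 3.84-fold for BHLH101, 4.44-fold for OPT3 and 4.59-fold for BHLH38. The IMA genes and BHLH100 stood further apart, at 6.38-fold for IMA2, 8.48-fold for IMA1 and 51.1-fold for BHLH100, and IMA3 was hardly detected in roots. BHLH39 was the exception. Its WT groups overlapped, at 26.8 ± 0.736 FPKM in shoots and 25.5 ± 1.39 in roots (log2 difference −0.071, adjusted p = 0.122). It was called lower in roots without WT root replicate 3 (−0.11, adjusted p = 0.0166) and called higher in roots when scaled to the summed fragments (0.26, adjusted p = 3.23e-05) or with voom (0.27, adjusted p = 3.50e-06).

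BHLH39 was the most abundant of the 4 BHLH transcripts in roots of both genotypes. In WT roots BHLH39 stood at 25.5 FPKM, BHLH38 at 7.44, BHLH101 at 5.35 and BHLH100 at 0.745. In WT shoots BHLH100 stood at 38.0 FPKM, BHLH38 at 34.1, BHLH39 at 26.8 and BHLH101 at 20.6. In CCA1-ox shoots BHLH38 moved to the top of this order at 62.4 FPKM. FPKM is per base of exon, so these levels can be set against each other. A limit is that BHLH38 and BHLH101 overlap genes on the other strand, whose reads may not have been told apart.

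In CCA1-ox plants the same 9 genes were lower in roots than in shoots, against 41.5% of all genes (86.7% were called in either direction), and BHLH39 was higher in roots (0.29, SE 0.0413, adjusted p = 1.69e-05), against 45.2%. In the deposited FPKM, the distance between organs narrowed for BHLH100, to 29.9-fold, and for BHLH101 (3.25-fold), OPT3 (3.78-fold), BTS (2.39-fold) and PYE (1.91-fold). It was nearly unchanged for BHLH38 (4.54-fold) and widened for IMA1 and IMA2, to 14.0-fold for both. These ratios depend on scaling. The matching test, the root effect minus the shoot effect of CCA1-ox, was not called for BHLH101. Scaled to the summed fragments, it was not called for BTS, OPT3 and PYE either, and was called for BHLH38. From highest to lowest, the groups stood as CCA1-ox shoots, WT shoots, CCA1-ox roots, WT roots for BHLH38, BHLH100, BHLH101, BTS and OPT3, with overlapping neighbours for BTS in shoots. For IMA1 and IMA2, the lowest 2 groups in that order were WT roots and then CCA1-ox roots, which overlapped. PYE stood in the order WT shoots, CCA1-ox shoots, CCA1-ox roots, WT roots, and its shoot groups overlapped. For BHLH39 the order was CCA1-ox roots, CCA1-ox shoots, WT shoots, WT roots, of which the last 2 overlapped.

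The effect of CCA1 overexpression itself was compared between organs as the root effect minus the shoot effect. BHLH39, BHLH100, BTS, PYE and OPT3, 5 genes, had a more positive effect in roots, and IMA1 and IMA2 a more positive one in shoots, against 27.2% and 23.5% of all genes tested (50.7% were called in either direction). The difference was −1.12 for IMA2 (SE 0.0997, adjusted p = 8.03e-07) and −0.64 for IMA1 (SE 0.153, adjusted p = 0.00338). It was 0.36 for BHLH39 (SE 0.0584, adjusted p = 0.000194), 0.32 for BHLH100 (SE 0.0763, adjusted p = 0.00319) and 0.29 for PYE (SE 0.0987, adjusted p = 0.0242). BTS and OPT3 each stood at 0.22 (adjusted p = 0.00245 and 0.00142). For BHLH38, BHLH101 and IMA3 no difference was called (−0.047, 0.19 and 0.065, with 95% intervals of −0.14 to 0.050, 0.0093 to 0.37 and −0.077 to 0.21).

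The smaller of these differences depended on scaling. Scaled to the summed fragments, the median interaction of all genes tested moved from 0.037 to −0.11, and the share of called interactions that were positive from 53.6% to 29.0%. BTS (0.049, adjusted p = 0.437), OPT3 (0.051, adjusted p = 0.371) and PYE (0.13, adjusted p = 0.285) then did not pass, while BHLH39 (0.19, adjusted p = 0.0119), BHLH100 (0.21, adjusted p = 0.0382), IMA1 (−0.81, adjusted p = 0.000762) and IMA2 (−1.29, adjusted p = 2.29e-07) did. BHLH38 was then called as well, with a more positive effect in shoots (−0.20, adjusted p = 0.00157), as it was with a pseudocount of 5 (−0.19, adjusted p = 0.000637) and with quantile normalization (−0.13, adjusted p = 0.0187). For PYE the call was also lost without WT shoot replicate 2, CCA1-ox shoot replicate 1, WT root replicates 2 or 3, or CCA1-ox root replicate 1 (0.23 to 0.28, adjusted p = 0.0511 to 0.0628), and for BHLH101 a call was gained without CCA1-ox root replicate 3 (0.26, adjusted p = 0.00541). BHLH100 did not pass with a pseudocount of 5 (0.033, adjusted p = 0.640). With quantile normalization BTS (0.054, adjusted p = 0.429) and OPT3 (0.045, adjusted p = 0.454) did not pass either.

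Other iron genes were set beside the 10, as 5 lists with 64 genes, of which 55 were tested. The lists too were chosen with earlier results of these data known, so their counts are a description. Each list gene said to rise or fall had an adjusted p of at most 0.00126 in limma, and values in parentheses are log2 fold changes on log2(FPKM + 1). In roots the uptake and secretion genes that FIT and the BHLH38 group control were mostly higher in CCA1-ox. Of 13 tested, 11 were called higher and 1 lower (median log2 fold change 0.48, against 0.016 for all genes, of which 20.8% were called higher and 15.4% lower). S8H, which makes fraxetin, rose from 1.40 ± 0.122 to 10.7 ± 0.202 FPKM (2.28), CYP82C4, which acts after it, from 11.1 ± 0.137 to 29.8 ± 1.14 (1.34), and F6′H1, the first enzyme of coumarin synthesis, from 109 ± 2.98 to 192 ± 1.39 (0.82). The reductase gene FRO2 rose from 11.2 ± 0.183 to 22.5 ± 0.844 FPKM (0.94). In shoots the same list had 3 called higher and 1 lower (median −0.0056, against 26.6% and 28.9% of all genes called), and NRAMP1, a manganese and iron transporter, fell from 8.88 ± 0.215 to 6.30 ± 0.0706 FPKM (−0.44). IRT1, the main iron transporter of the root, rose in roots from 45.9 ± 0.841 to 81.4 ± 1.93 FPKM (0.81). It was called higher in shoots too, at a level of 0.394 ± 0.0614 FPKM against 0.0730 ± 0.00588 (0.38), from 4 to 26 fragments per library.

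Of the upstream regulators, 6 of 11 were called higher and 1 lower in shoots (median 0.25, against 26.6% and 28.9% of all genes), and 5 were called higher and 2 lower in roots (median 0.093, against 20.8% and 15.4%). This list holds activators such as BHLH115 beside relatives of BTS, so its counts and medians give no direction of the pathway. In shoots BHLH20, a bHLH gene of another branch, rose from 12.7 ± 0.549 to 22.7 ± 0.870 FPKM (0.79) and BHLH115, an activator upstream of BHLH38, from 49.9 ± 0.681 to 70.9 ± 2.31 (0.50). BTSL1, a relative of BTS, rose in both organs (0.57 in shoots and 0.51 in roots). FIT rose in roots from 34.2 ± 0.457 to 45.1 ± 2.04 FPKM (0.39), and BHLH34 fell there from 5.37 ± 0.516 to 3.96 ± 0.416 (−0.36). In shoots FIT fell at a low level, from 0.972 ± 0.102 to 0.631 ± 0.0792 FPKM (−0.27), with 28 to 56 fragments per library. BHLH115 and BTSL1 overlap genes on the other strand, as do F6′H1 and NRAMP1 of the uptake list and YSL2 of the movement list.

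Genes for iron movement in the plant went both ways. In shoots 6 of 13 were called higher and 2 lower (median 0.13), against 26.6% and 28.9% of all genes. Those called higher included NAS1, which makes the metal ligand nicotianamine, from 21.2 ± 0.587 to 45.0 ± 2.02 FPKM (1.05), and the carriers YSL2 (0.56) and YSL3 (0.52). NRAMP3, which exports iron from the vacuole, rose from 4.06 ± 0.815 to 8.07 ± 0.544 FPKM (0.85). In roots 6 were called higher and 3 lower (median 0.20), against 20.8% and 15.4% of all genes. NAS1 rose there (0.74), as did ZIF1 (0.41), a vacuolar carrier. FRD3, which loads citrate into the xylem, fell there (−0.69). FPN1, an iron exporter, fell there from 3.96 ± 0.214 to 1.62 ± 0.229 FPKM (−0.92). In shoots ZIF1 went the other way, from 47.1 ± 0.865 to 39.6 ± 0.541 FPKM (−0.25).

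Of 10 genes of iron storage and of iron-rich proteins, 5 were called lower and 3 higher in shoots (median −0.11), against 28.9% and 26.6% of all genes. In roots 5 were called lower and 1 higher (median −0.16), against 15.4% and 20.8%. The ferritin gene FER1, which stores iron in plastids, fell in roots from 75.9 ± 0.155 to 54.3 ± 2.46 FPKM (−0.48), and FER4 fell from 8.33 ± 0.483 to 5.33 ± 0.572 (−0.56). SUFB, of iron-sulphur cluster assembly, fell there by 0.35 on the log2 scale. In shoots FER3 fell from 63.8 ± 1.03 to 45.6 ± 1.11 FPKM (−0.48) and NEET, an iron-sulphur protein, from 36.2 ± 1.57 to 26.3 ± 1.71 (−0.45). VTL1 and VTL5, of the vacuolar iron transporter-like family, rose in shoots (1.08 and 0.81). FER1 and SUFB overlap genes on the other strand, and FER4 overlaps one on its own strand.

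Of 8 other markers of iron shortage, 1 was called higher and 4 lower in shoots (median −0.093), against 26.6% and 28.9% of all genes. In roots 4 were called higher and none lower (median 0.11), against 20.8% and 15.4%. GRF11, a 14-3-3 gene, went in opposite directions, from 18.9 ± 1.55 to 7.50 ± 1.15 FPKM in shoots (−1.23) and from 2.98 ± 0.190 to 5.12 ± 0.480 in roots (0.62). AT3G07720 also fell in shoots (−0.51) and rose in roots (0.43). CGLD27 fell in shoots from 106 ± 0.463 to 86.7 ± 1.92 FPKM (−0.29), and ORG1 rose in roots (0.23). In shoots ORG1 stood at 185 ± 0.802 FPKM in WT and at 166 ± 4.28 in CCA1-ox, with no overlap.

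**Figure D5:**
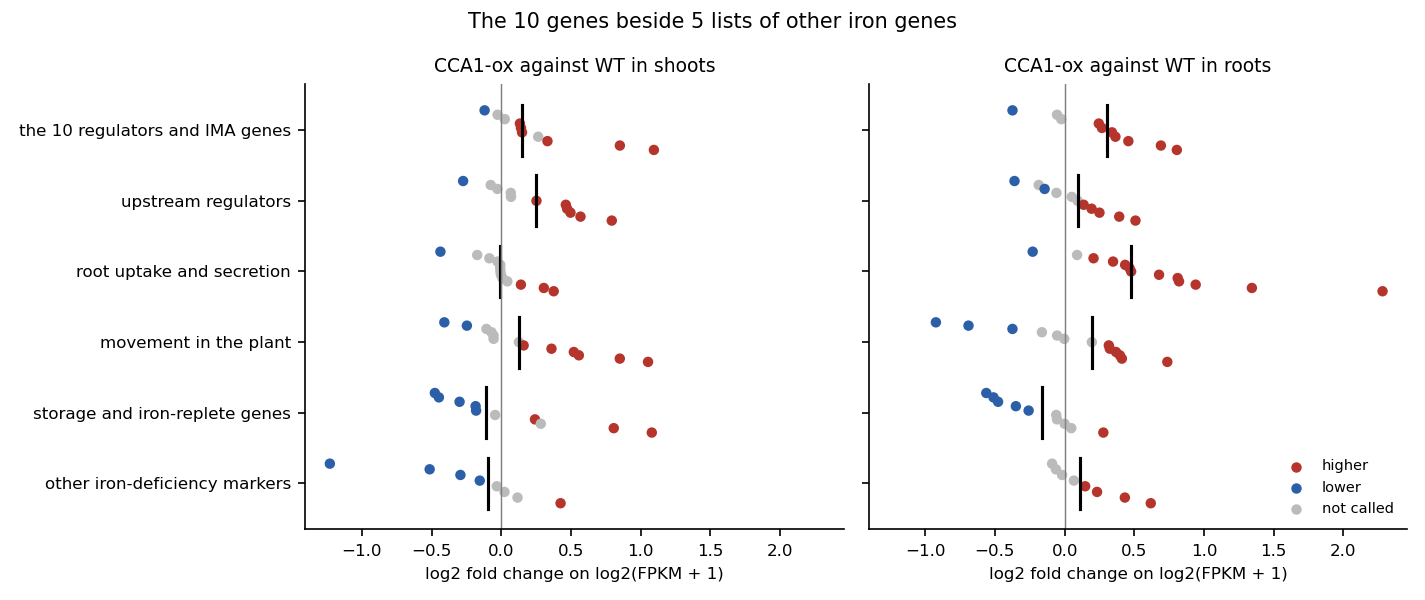
Log2 fold change of CCA1-ox against WT (x axis, on log2(FPKM + 1)) for the 10 genes and 5 lists of other iron genes in shoots (left) and roots (right); each point is a gene, coloured by its call, and black bars are list medians. In roots the medians are 0.30 for the 10 genes and 0.48 for uptake and secretion, and the storage list lies at −0.16.

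The genes whose pattern over the 4 groups was most like that of 3 of the genes were found by the root mean square difference of centred log2(mean FPKM + 1), among 9735 other genes that varied by at least 1 on that scale. For IMA1 they were FLA13 (0.024), PHS2 (0.026), FTRA2 (0.046), AT4G11211 (0.087) and AT2G14080 (0.099), and the nearest of the 10 genes was IMA2 (0.32). For OPT3 they were AT1G06980 (0.028), EFE (0.044), AT3G26510 (0.047), AT1G16390 (0.048) and BAG2 (0.055), and the nearest of the 10 was BHLH101 (0.17). For BHLH39 they were CDEF1 (0.20), AT3G01035 (0.23), AT1G33320 (0.25), AT1G67650 (0.26) and CCH (0.26), and the nearest of the 10 was PYE (0.59). Group means were 0.481 to 2.07 FPKM for AT3G01035, 0.0128 to 1.175 for AT1G33320 and 1.37 to 3.89 for AT1G67650. The scale understates changes of such low values, so their ratios between groups can differ from those of BHLH39. BHLH39 itself varied by less than 1 on that scale, so genes with as small a range were left out beforehand. Its distances therefore cannot be set against those of IMA1 and OPT3.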

How the data were processed

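Stranded RNA-seq libraries of total RNA from 12 samples were used, 3 per group, per the labels' protocols. The authors deposited FPKM for 33010 genes with exon lengths. The build was TAIR10, per the submitters' processing notes, and no source used here gives the aligner, counter or strand setting. FPKM times length came in whole multiples of 1 step per library (100% of values whole within 0.1), which gave the fragments behind each value. Their sums differed from the library sizes in the FPKM, by mean factors of 0.906 (WT) and 0.976 (CCA1-ox) for shoots and 1.15 and 1.10 for roots. No 2 libraries were identical, and each of the 12 replicate pairs differed by more than sampling noise (median chi-square over genes 1.01 to 1.29, against 0.455).

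The 20975 genes that reached 1 FPKM in 3 or more libraries were fitted in R 4.3.3 with limma 3.58.1 on log2(FPKM + 1), as 4 group means with limma's trend option and 8 residual degrees of freedom. Tests were two-sided and called at adjusted p under 0.05. The same model was tested on simulated fragments. Apart from the changes put in, these had the same share per gene in both organs and no gap between library size and summed fragments. That test therefore does not bear on the organ comparisons or on scaling. Upstream and coding sequences came from the RefSeq TAIR10.1 genome, whose gene starts and ends equal those of the deposited table for all 10 genes. The members and lists were chosen with earlier results of these data known. Text names the 10 genes, CCA1 and, per list and organ, called genes among the 4 with the largest change. IRT1 is given in roots as well, and FIT, ZIF1 and ORG1 in shoots. Alternatives were another pseudocount, filter, scaling or model, a replicate block and leaving out each library.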

Additional observations from a re-analysis of the deposited data

Results flagged for a closer look

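The effect of CCA1 overexpression differed between organs for 7 of the 10 genes, by the test of the root effect minus the shoot effect in limma, against 50.7% of all genes tested. On the log2 scale this difference was 0.36 for BHLH39, 0.32 for BHLH100, 0.29 for PYE, 0.22 for BTS and 0.22 for OPT3, where the effect was more positive in roots. It was −0.64 for IMA1 and −1.12 for IMA2, where the effect was more positive in shoots. IMA1 was called lower in roots and missed the threshold in shoots, while IMA2 was called higher in shoots and was not called in roots. The calls of BTS (0.049, adjusted p = 0.437), OPT3 (0.051, adjusted p = 0.371) and PYE (0.13, adjusted p = 0.285) were lost when libraries were scaled to the summed fragments, and also with voom. With quantile normalization those of BTS (0.054, adjusted p = 0.429) and OPT3 (0.045, adjusted p = 0.454) were lost as well. The call of BHLH100 was lost with voom (adjusted p = 0.0801) and with a pseudocount of 5 (0.640).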

How the results depend on the processing

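Of the counts of genes called among the 10, those with few or small changes moved. The 1 gene called lower in shoots (IMA3) became 0 with a pseudocount of 0.1, with quantile normalization, scaled to the summed fragments, with voom and with the replicate block, and 0 to 1 when single libraries were left out. The 1 called lower in roots (IMA1) became 0 in the fit of the groups compared alone, and 0 to 1 when single libraries were left out. The 5 genes with a more positive effect in roots became 3 with quantile normalization, 2 scaled to the summed fragments and 1 with voom, and the count of genes higher in WT roots than in WT shoots went from 0 to 1 (BHLH39) scaled to the summed fragments and with voom. Signs turned for BHLH38 in the root effect minus the shoot effect with a pseudocount of 0.1 (0.0084), for BHLH39 between WT organs with quantile normalization (0.024), scaled to the summed fragments (0.26) and with voom (0.27), for IMA2 in roots without CCA1-ox root replicate 2 (−0.097 to 0.068 over the libraries left out), for IMA3 in the root effect minus the shoot effect with a pseudocount of 0.1 (−0.22), scaled to the summed fragments (−0.053) and with voom (−0.75), and for PYE in shoots scaled to the summed fragments (0.077), with voom (0.082) and without CCA1-ox shoot replicate 1 (−0.058 to 0.027 over the libraries left out). The cause was not tested. BHLH100 and BHLH101 in shoots were also lost with a pseudocount of 0.1 (adjusted p = 0.124 and 0.0695) and without a filter on low values (0.0587 and 0.0635), and BHLH100 in the fit of shoots alone (0.0697).

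Scaling to the summed fragments moved the share of called genes that were higher from 48.0% to 66.0% in shoots and from 57.4% to 38.8% in roots. Same-numbered libraries of different groups showed no strong shared shift. Their deviations from the group means had correlations of −0.0445 to 0.0424, and 5 of 12 libraries correlated best with their own number. Whether same-numbered libraries came from the same plants or harvest cannot be told from these values. With the replicate block 11524 genes were called in shoots against 11637, 7463 in roots against 7612, and 4 of the 10 genes were called higher in shoots against 6, since BHLH100 (adjusted p = 0.0641) and BHLH101 (0.0637) missed the threshold. The count of the 10 genes called higher in shoots rose to 8 with quantile normalization, scaled to the summed fragments and with voom, where IMA1 and BTS were called as well. Root values of BHLH100 and IMA3 rest on at most 63 and 12 fragments per library.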
